A study of Mus musculus with 16 samples.

Results

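The genes described here are 34 components of the machinery that fills synaptic vesicles with transmitter and fuses them with the nerve terminal membrane. They are a list of gene names set by function, put together with earlier results of these data known: Vamp1, Vamp2, Snap25, Stx1a, Nsf, Napa, Napb, Syt1, Syt2, Syt3, Syt4, Syt7, Syt11, Doc2b, Cplx1, Cplx2, Syp, Syngr1, Syngr3, Sv2a, Sv2b, Sv2c, Syn1, Syn2, Syn3, Rab3a, Slc17a6, Slc17a7, Slc17a8, Rims1, Rims2, Unc13a, Bsn and Pclo. All 34 were found among the 25719 gene identifiers of each library, and all 34 were among the 15109 genes that passed the filter on low counts. RNA was sequenced from trigeminal ganglia, the paired sensory ganglia of the face, of mice lacking Nogo-A (KO) and of wild-type mice (WT). Nogo-A is the longest product of the gene Rtn4 and restrains the growth of neurites. Ganglia came from animals at postnatal day 25 (P25) or at embryonic day 14 (E14), with 4 libraries in each of the 4 groups P25 KO, P25 WT, E14 KO and E14 WT, and each library held 1 ganglion. The labels do not give the mouse strain, the sex or the way Nogo-A was deleted, and no treatment is named.

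When calcium enters a nerve terminal, a SNARE protein on the vesicle (a synaptobrevin) zips together with SNARE proteins on the plasma membrane (syntaxin and SNAP-25), and the membranes fuse. Synaptotagmins sense the calcium, complexins hold and promote the assembled SNAREs, Munc13 and RIM proteins make vesicles ready at the active zone, and NSF with its SNAP adaptors takes spent SNARE complexes apart. Trigeminal sensory neurons largely use glutamate, which vesicular glutamate transporters load into vesicles, and they release it far from the ganglion, so what was measured here is messenger RNA in and around the cell bodies.

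Library totals ran from 22797780 to 29562379 estimated counts at P25 and from 15532373 to 21026134 at E14. Rtn4, counted over all its transcripts and not for Nogo-A alone, stood at 345 to 384 CPM (counts scaled to the library total) in P25 KO and 406 to 542 CPM in P25 WT, and at 236 to 405 CPM in E14 KO and 144 to 521 CPM in E14 WT. It was not called at either stage (log2 fold change of KO over WT -0.41, SE 0.26, adjusted p = 1 at P25 and -0.27, SE 0.26, adjusted p = 0.943 at E14), so the gene-level counts check the genotype labels only weakly. E14 WT replicate 2 stood apart: the median absolute log2 deviation of its genes from the mean of the other libraries of its group was 0.62, against 0.11 to 0.32 in the other 15 libraries. Summed markers of neurons in general (10 of 10 present in every library) ran from 14389 to 18732 CPM at P25 and from 12959 to 16576 CPM at E14, and those of sensory neurons (9 of 9) from 4989 to 5620 CPM at P25 and from 6043 to 9534 CPM at E14. Schwann cell and satellite glia markers (11 of 11) summed to 22194 to 44389 CPM at P25 and to 1050 to 1606 CPM at E14. Up to 6 of 7 central neuron markers were at 0 in a library of each group, Gad2 in all 16, and their sum stayed at or below 0.718 CPM at P25 and 5.62 CPM at E14. In whole ganglia, fewer cells of a type and less RNA per cell cannot be told apart, and the part of cell composition in the stage differences was not tested.

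Between the stages, the release genes moved mostly upward. In KO ganglia 24 of the 34 were called (adjusted p under 0.05 in the edgeR quasi-likelihood test), 21 higher and 3 lower at P25, where 59.8% of all tested genes were called, 30.6% higher and 29.2% lower. In WT ganglia 24 were also called, 20 higher and 4 lower, where 59.6% of all tested genes were called, 29.7% higher and 29.8% lower. The median log2 fold change of the 34 (P25 over E14) was 0.99 in KO and 0.94 in WT, beside 0.01 and 0.00 for all tested genes in KO and in WT. All P25 libraries lay above all E14 libraries for 21 members in KO and 19 in WT, and below them for 3 in KO and 3 in WT. The same 20 members were called higher in both genotypes, and Stx1a, Sv2a and Doc2b were called lower in both. How many of all tested genes lay apart in this way, or were called in both genotypes, was not counted. These numbers therefore describe the members only. Pclo was called in KO alone and Syn3 in WT alone. The remaining 9 members, Vamp2, Syt1, Syt4, Syn2, Cplx2, Rims1, Rims2, Unc13a and Bsn, were called in neither genotype. Summed over all 34 genes, the release machinery took 13389 to 14768 CPM in P25 KO and 13688 to 15683 CPM in P25 WT, against 5556 to 6341 CPM in E14 KO and 5167 to 8318 CPM in E14 WT.

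**Figure D1:**
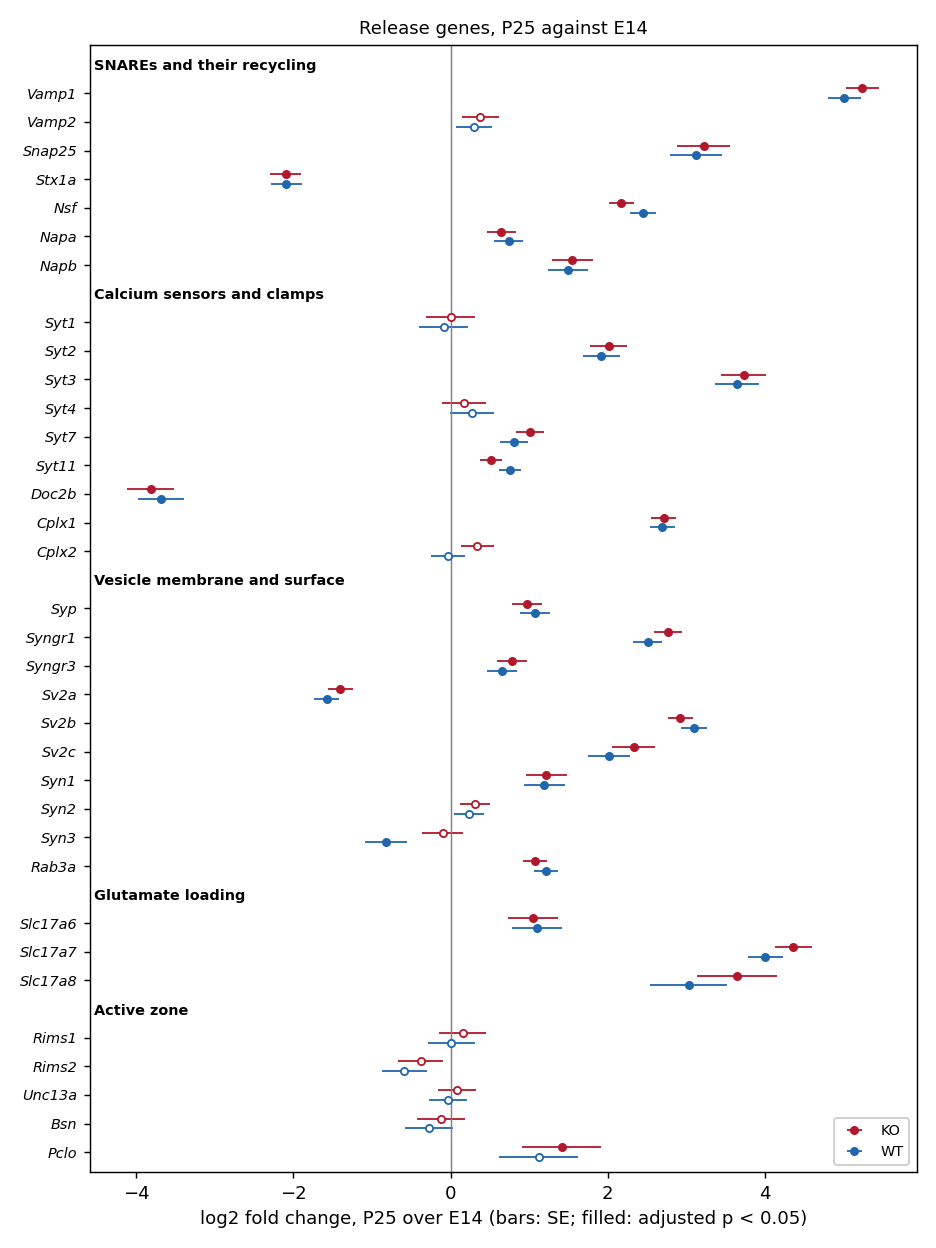
Log2 fold change of P25 over E14 (horizontal axis) for each of the 34 release genes, grouped by role, in KO (red) and WT (blue) ganglia. Bars are standard errors and filled points passed an adjusted p of 0.05. Vamp1 lies farthest to the right at 5.24 in KO and 5.01 in WT, and Doc2b farthest to the left at -3.82 in KO and -3.68 in WT. The active zone genes other than Pclo lie from -0.59 (Rims2 in WT) to 0.15 (Rims1 in KO).

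To show the start regions of members that moved in opposite directions, the 250 bases before the RefSeq gene start (GRCm38.p6, 5′ to 3′ on the strand of the gene) are given for Vamp1 and Slc17a7, which were the largest rises, and for Stx1a and Sv2a, which fell. Capitals mark matches to GGGCGG, the GC box, a CCAAT box or, spelled TATAAA, the TATA box, on either strand. Matches may overlap.
Vamp1 (chr6:125215331-125215580, + strand): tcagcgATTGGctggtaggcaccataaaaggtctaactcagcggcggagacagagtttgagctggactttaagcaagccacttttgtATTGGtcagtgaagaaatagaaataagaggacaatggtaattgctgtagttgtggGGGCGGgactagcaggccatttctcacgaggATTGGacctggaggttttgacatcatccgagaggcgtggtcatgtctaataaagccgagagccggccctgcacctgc
Slc17a7 (chr7:45163671-45163920, + strand): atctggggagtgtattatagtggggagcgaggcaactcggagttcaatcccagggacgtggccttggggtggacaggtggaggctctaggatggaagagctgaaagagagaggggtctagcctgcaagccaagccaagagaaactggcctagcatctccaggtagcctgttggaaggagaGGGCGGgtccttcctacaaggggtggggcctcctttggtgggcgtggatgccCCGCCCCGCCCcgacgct
Stx1a (chr5:135023232-135023481, + strand): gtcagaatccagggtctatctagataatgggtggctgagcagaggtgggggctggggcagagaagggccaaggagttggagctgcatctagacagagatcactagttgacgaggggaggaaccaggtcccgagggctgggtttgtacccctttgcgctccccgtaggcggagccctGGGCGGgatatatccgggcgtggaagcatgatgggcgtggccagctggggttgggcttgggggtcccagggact
Sv2a (chr3:96180977-96181226, + strand): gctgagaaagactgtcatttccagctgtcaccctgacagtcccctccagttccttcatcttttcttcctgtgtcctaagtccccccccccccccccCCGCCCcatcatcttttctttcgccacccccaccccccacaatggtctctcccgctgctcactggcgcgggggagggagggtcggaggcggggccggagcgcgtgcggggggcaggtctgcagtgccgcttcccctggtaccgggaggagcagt
The window of Vamp1 held 1 GC box and 3 CCAAT boxes, that of Slc17a7 held 3 GC boxes, and those of Stx1a and Sv2a held 1 GC box each. No TATA box was matched in these 4 windows. Of the 26 members with an entry in the RefSeq promoter table, 18 (69.2%) had a GC box in this window, beside 35.4% of the 27025 genes in the table. A gene with several starts counted if any of its windows matched, with 35 windows for the 26 members and 32851 for all genes. The genes in the table were not limited to those tested here. A CCAAT box was matched in 6 of 26 (23.1%), beside 37.5% of all genes, and a TATA box in 1 of 26 (3.85%), Sv2b, beside 14.3% of all genes. GC content had a median of 61.2% over the members' windows and 52.4% over all windows. Counted by gene, a GC box was matched in 11 of 17 members higher at P25 in both genotypes, 2 of 2 lower in both and 4 of 6 called in neither.

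Of the SNARE genes, Vamp1 changed most and its relative Vamp2 did not pass the test. Vamp1, a synaptobrevin known in mice for its need at motor and other peripheral nerve terminals, stood at 863, 967, 1035 and 967 CPM in P25 KO libraries and 952, 1056, 958 and 1032 CPM in P25 WT libraries. At E14 Vamp1 had 20.9, 25.8, 22.3 and 32.4 CPM in KO libraries and 31.1, 42.5, 23.7 and 26.8 CPM in WT libraries. Every P25 library was at least 20 times above the highest E14 library, and the log2 fold change was 5.24 in KO (SE 0.21, adjusted p = 1.32e-13) and 5.01 in WT (SE 0.21, adjusted p = 2.08e-13). Vamp2, the main synaptobrevin of the brain, stood at 1036, 909, 1075 and 828 CPM in P25 KO libraries and 1174, 848, 1227 and 937 CPM in P25 WT libraries. At E14 Vamp2 had 815, 792, 719 and 629.5 CPM in KO libraries and 749, 1452, 651 and 554 CPM in WT libraries. In KO all P25 libraries lay above all E14 libraries, in WT the stages overlapped, and E14 WT replicate 2 had the highest value of all 16 libraries. Its log2 fold change was 0.38 in KO (SE 0.23, adjusted p = 0.166) and 0.30 in WT (SE 0.23, adjusted p = 0.282). Without that library the log2 fold change of Vamp2 was 0.38 in KO (adjusted p = 0.0266) and 0.68 in WT (adjusted p = 0.000952). Divided by transcript length, Vamp1 made up 44.3 ± 3.5% of synaptobrevin CPM per kb in P25 KO and 43.5 ± 5.6% in P25 WT, against 2.72 ± 0.84% in E14 KO and 3.00 ± 0.61% in E14 WT (SD, n = 4).

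On the plasma membrane side, Snap25 and Stx1a went opposite ways. Snap25, which brings a pair of helices to the SNARE bundle, stood at 652, 637, 414 and 764 CPM in P25 KO libraries and 568, 458, 499 and 554 CPM in P25 WT libraries. At E14 Snap25 had 47.7, 102, 70.4 and 43.8 CPM in KO libraries and 54.7, 23.1, 79.3 and 81.2 CPM in WT libraries. No E14 library reached the lowest P25 library, and the log2 fold change was 3.22 in KO (SE 0.34, adjusted p = 8.65e-08) and 3.12 in WT (SE 0.33, adjusted p = 1.21e-07). Stx1a, the syntaxin that pairs with it, stood at 41.5, 43.9, 46.0 and 36.4 CPM in P25 KO libraries and 41.0, 37.6, 45.0 and 46.1 CPM in P25 WT libraries. At E14 Stx1a had 183, 139, 179.9 and 217 CPM in KO libraries and 185, 261, 137 and 139 CPM in WT libraries. All 8 P25 libraries lay below all 8 E14 libraries, and the log2 fold change was -2.10 in KO (SE 0.20, adjusted p = 2.70e-08) and -2.09 in WT (SE 0.20, adjusted p = 2.86e-08).

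The recycling enzymes rose. Nsf, the ATPase that takes SNARE complexes apart, stood at 419, 409, 368 and 401 CPM in P25 KO libraries and 435, 494, 500.4 and 389 CPM in P25 WT libraries. At E14 Nsf had 70.1, 106, 81.6 and 97.4 CPM in KO libraries and 80.9, 72.4, 92.0 and 87.9 CPM in WT libraries. P25 values were all above 360 CPM and E14 values all below 110 CPM, with a log2 fold change of 2.17 in KO (SE 0.16, adjusted p = 6.07e-10) and 2.45 in WT (SE 0.16, adjusted p = 1.15e-10). Napb, the SNAP adaptor of neurons, stood at 180.4 to 257 CPM in P25 KO and 165 to 213 CPM in P25 WT, against 68.8 to 93.7 CPM in E14 KO and 26.4 to 87.6 CPM in E14 WT, and Napa, its widely expressed relative, at 358 to 423 CPM in P25 KO and 362 to 536 CPM in P25 WT, against 204 to 329 CPM in E14 KO and 203 to 309 CPM in E14 WT. Their log2 fold changes were 1.55 in KO (SE 0.26) and 1.49 in WT (SE 0.26) for Napb and 0.65 in KO (SE 0.18) and 0.74 in WT (SE 0.19) for Napa, and all 4 passed the test.

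Among the calcium sensors, Syt2 and Syt3 rose while Syt1 and Syt4 did not pass the test. Syt2, a fast calcium sensor of hindbrain, spinal and peripheral synapses in mice, stood at 623, 580.0, 492 and 587 CPM in P25 KO libraries and 621, 754, 735 and 546 CPM in P25 WT libraries. At E14 Syt2 had 153, 167, 108 and 137 CPM in KO libraries and 121, 288, 166 and 129 CPM in WT libraries. E14 WT replicate 2 was the highest E14 library and still below every P25 library, and the log2 fold change was 2.01 in KO (SE 0.23, adjusted p = 4.05e-07) and 1.92 in WT (SE 0.23, adjusted p = 7.29e-07). Syt1, the fast sensor of forebrain synapses, stood at 114, 119, 80.2 and 153 CPM in P25 KO libraries and 89.8, 116, 93.0 and 93.0 CPM in P25 WT libraries. At E14 Syt1 had 96.3, 176, 91.9 and 99.8 CPM in KO libraries and 99.997, 35.6, 150.0 and 131 CPM in WT libraries. The stages overlapped, with the lowest value of all in E14 WT replicate 2, and the log2 fold change was 0.00 in KO (SE 0.31, adjusted p = 0.992) and -0.09 in WT (SE 0.31, adjusted p = 0.823). Syt3, a high-affinity calcium sensor, stood at 94.2, 92.7, 97.8 and 98.8 CPM in P25 KO libraries and 90.7, 75.6, 89.5 and 122 CPM in P25 WT libraries. At E14 Syt3 had 5.18, 6.02, 8.91 and 8.76 CPM in KO libraries and 7.47, 12.9, 4.38 and 5.56 CPM in WT libraries. The stages were far apart in every library, with a log2 fold change of 3.73 in KO (SE 0.28, adjusted p = 9.86e-10) and 3.64 in WT (SE 0.28, adjusted p = 1.24e-09).

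Syt7, a slow high-affinity sensor, stood at 152 to 213 CPM in P25 KO and 147 to 221 CPM in P25 WT, against 77.2 to 109 CPM in E14 KO and 86.3 to 137 CPM in E14 WT, with a log2 fold change of 1.01 in KO (SE 0.18) and 0.80 in WT (SE 0.18). Syt11, a synaptotagmin that does not bind calcium, stood at 813 to 988 CPM in P25 KO and 886 to 1004 CPM in P25 WT, against 564 to 671 CPM in E14 KO and 458 to 641 CPM in E14 WT, with 0.52 in KO (SE 0.14) and 0.76 in WT (SE 0.14). Both passed the test in both genotypes. Syt4, which like Syt11 is not a fast calcium trigger, stood at 75.5 to 91.5 CPM in P25 KO and 68.6 to 89.0 CPM in P25 WT, against 61.0 to 101 CPM in E14 KO and 21.1 to 81.3 CPM in E14 WT, and its log2 fold changes were 0.17 in KO (SE 0.28) and 0.27 in WT (SE 0.28). Doc2b, a high-affinity sensor of spontaneous release, stood at 0.988, 1.29, 1.37 and 1.39 CPM in P25 KO libraries and 2.09, 1.18, 2.05 and 1.00 CPM in P25 WT libraries. At E14 Doc2b had 14.9, 20.5, 16.5 and 19.3 CPM in KO libraries and 17.7, 29.0, 22.2 and 12.8 CPM in WT libraries. All P25 libraries lay below all E14 libraries, and the log2 fold change was -3.82 in KO (SE 0.30, adjusted p = 1.23e-09) and -3.68 in WT (SE 0.29, adjusted p = 1.51e-09).

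Complexins bind the assembled SNARE bundle. Cplx1 stood at 1962, 2043, 1957 and 1761 CPM in P25 KO libraries and 2193, 1823, 2142 and 2014 CPM in P25 WT libraries. At E14 Cplx1 had 276, 309, 295 and 296 CPM in KO libraries and 312, 408, 278 and 267 CPM in WT libraries. The lowest P25 library was more than 4 times the highest E14 library, and the log2 fold change was 2.71 in KO (SE 0.16, adjusted p = 2.21e-11) and 2.69 in WT (SE 0.16, adjusted p = 2.37e-11). Cplx2 stood at 191, 167, 133 and 184 CPM in P25 KO libraries and 139, 129, 166 and 152 CPM in P25 WT libraries. At E14 Cplx2 had 114, 177, 128 and 115 CPM in KO libraries and 128, 93.3, 208 and 170.1 CPM in WT libraries. Its stages overlapped, with a log2 fold change of 0.34 in KO (SE 0.21, adjusted p = 0.173) and -0.03 in WT (SE 0.21, adjusted p = 0.903). The WT value of Cplx2 was so near 0 that its sign turned under other scalings. Per kb, Cplx1 made up 96.2% of complexin in P25 KO and 96.9% in P25 WT, against 83.4% in E14 KO and 82.1% in E14 WT.

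**Figure D2:**
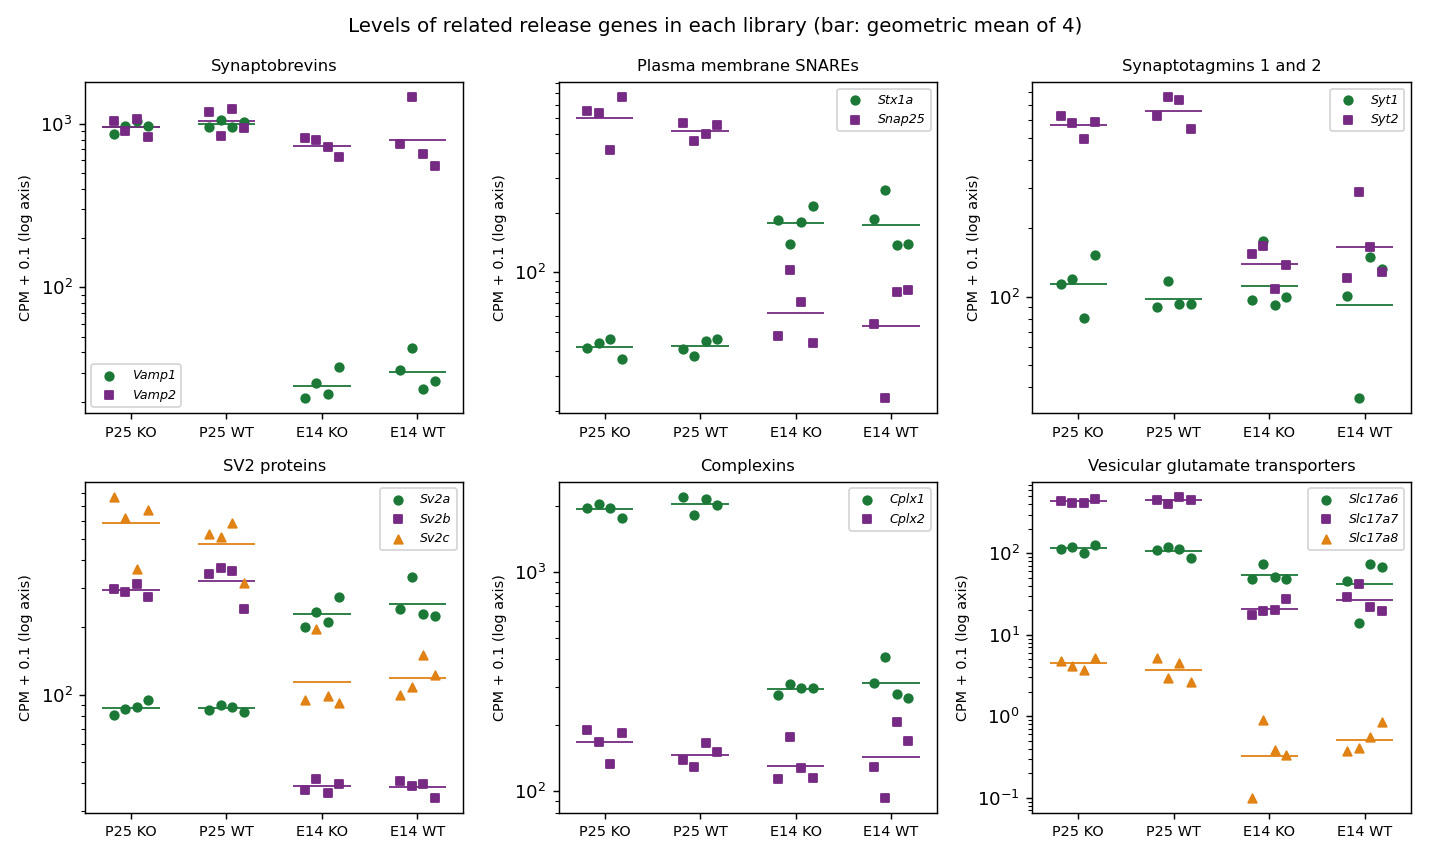
Levels in CPM plus 0.1 (log axis) of related release genes, 1 point per library, in P25 KO, P25 WT, E14 KO and E14 WT; bars are geometric means of 4. Vamp1, Sv2b, Slc17a7, Cplx1 and Syt2 are higher at P25, Stx1a and Sv2a are lower, Cplx2 overlaps between stages, and Vamp2 does so in WT.

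The SV2 glycoproteins of the vesicle membrane, known as the entry receptors of botulinum neurotoxin A, changed their order. Sv2a stood at 80.9, 86.2, 87.7 and 94.0 CPM in P25 KO libraries and 85.4, 89.8, 88.2 and 83.3 CPM in P25 WT libraries. At E14 Sv2a had 201, 235, 211 and 274 CPM in KO libraries and 241, 338, 231 and 225 CPM in WT libraries. No P25 library reached 100 CPM and no E14 library fell below 200 CPM, and the log2 fold change was -1.40 in KO (SE 0.16, adjusted p = 2.32e-07) and -1.58 in WT (SE 0.16, adjusted p = 4.75e-08). Sv2b stood at 298, 288, 314 and 275 CPM in P25 KO libraries and 348, 368, 358 and 241 CPM in P25 WT libraries. At E14 Sv2b had 37.4, 41.9, 36.3 and 39.7 CPM in KO libraries and 40.9, 38.8, 39.7 and 34.4 CPM in WT libraries. Its stages were clearly apart, with a log2 fold change of 2.92 in KO (SE 0.16, adjusted p = 7.36e-12) and 3.10 in WT (SE 0.16, adjusted p = 3.54e-12). Sv2c stood at 767, 616, 366 and 675 CPM in P25 KO libraries and 525, 509.8, 589 and 318 CPM in P25 WT libraries. At E14 Sv2c had 94.6, 198, 98.5 and 92.0 CPM in KO libraries and 99.6, 108, 151 and 122 CPM in WT libraries. It varied more between libraries, yet the lowest P25 library, P25 WT replicate 4, was above the highest E14 library, and the log2 fold change was 2.33 in KO (SE 0.27, adjusted p = 4.87e-07) and 2.02 in WT (SE 0.27, adjusted p = 2.76e-06). Per kb, Sv2a made up 14.6 ± 2.2% of the SV2 genes in P25 KO and 15.4 ± 2.8% in P25 WT, against 72.6 ± 5.6% in E14 KO and 74.3 ± 4.8% in E14 WT (SD, n = 4). Sv2c made up 46.8% in P25 KO and 39.8% in P25 WT, against 17.8% in E14 KO and 16.8% in E14 WT, and Sv2b took the rest.

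Of the other vesicle membrane proteins, Syngr1 moved most. Syngr1, a synaptogyrin, stood at 614, 597, 631 and 583 CPM in P25 KO libraries and 574, 541, 632 and 576 CPM in P25 WT libraries. At E14 Syngr1 had 92.9, 85.4, 82.2 and 95.5 CPM in KO libraries and 86.5, 151, 92.1 and 79.7 CPM in WT libraries. Its log2 fold change was 2.77 in KO (SE 0.18, adjusted p = 1.24e-10) and 2.51 in WT (SE 0.18, adjusted p = 4.48e-10). Syngr3, a second synaptogyrin, stood at 124, 156, 121 and 160.2 CPM in P25 KO libraries and 127, 141, 127 and 195 CPM in P25 WT libraries. At E14 Syngr3 had 74.1, 95.2, 62.6 and 96.0 CPM in KO libraries and 83.4, 121, 86.6 and 82.6 CPM in WT libraries. The rise of Syngr3 was smaller, with a log2 fold change of 0.78 in KO (SE 0.19, adjusted p = 0.0017) and 0.66 in WT (SE 0.19, adjusted p = 0.00583), and P25 and E14 libraries were apart in both genotypes. Per kb, Syngr1 made up 67.1% of Syngr1 and Syngr3 together in P25 KO and 65.1% in P25 WT, against 34.2% in E14 KO and 33.6% in E14 WT. Syp, synaptophysin, an abundant vesicle protein that binds synaptobrevin, stood at 1189 to 1398 CPM in P25 KO and 1235 to 1539.8 CPM in P25 WT, against 567 to 688 CPM in E14 KO and 493 to 996 CPM in E14 WT, with log2 fold changes of 0.97 in KO (SE 0.19) and 1.08 in WT (SE 0.19). Rab3a, the small GTPase of the vesicle surface, stood at 726 to 852 CPM in P25 KO and 677 to 907 CPM in P25 WT, against 348 to 409 CPM in E14 KO and 289 to 443 CPM in E14 WT, with 1.08 in KO (SE 0.16) and 1.22 in WT (SE 0.16). Both genes were called in both genotypes.

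Synapsins tether vesicles in the reserve cluster, and they did not move together. Syn1 stood at 1417, 1012, 1075 and 941 CPM in P25 KO libraries and 1483, 1036, 1523 and 960.4 CPM in P25 WT libraries. At E14 Syn1 had 511, 512, 483 and 405 CPM in KO libraries and 454, 965, 422 and 349.7 CPM in WT libraries. In WT the stages overlapped, with E14 WT replicate 2 at 965 CPM, and the log2 fold change was 1.22 in KO (SE 0.26, adjusted p = 4.32e-04) and 1.19 in WT (SE 0.26, adjusted p = 5.32e-04). Syn2 stood at 214 to 249 CPM in P25 KO and 226 to 294 CPM in P25 WT, against 163 to 244 CPM in E14 KO and 178 to 334 CPM in E14 WT, and its log2 fold changes of 0.31 in KO (SE 0.19) and 0.24 in WT (SE 0.19) did not pass the test. Syn2 was called higher in WT without E14 WT replicate 2 and in KO without E14 KO replicate 2. Syn3, a synapsin known for early neuronal development, stood at 11.7, 9.44, 6.80 and 8.29 CPM in P25 KO libraries and 5.19, 6.19, 8.76 and 4.21 CPM in P25 WT libraries. At E14 Syn3 had 6.70, 11.2, 11.2 and 9.76 CPM in KO libraries and 9.44, 7.14, 14.0 and 12.4 CPM in WT libraries. Its log2 fold change was -0.10 in KO (SE 0.26, adjusted p = 0.758) and -0.82 in WT (SE 0.27, adjusted p = 0.0124), and the WT call was lost without E14 WT replicate 3 (-0.61, adjusted p = 0.0741) or replicate 4 (-0.68, adjusted p = 0.054). Per kb, Syn3 made up 0.875% of the synapsins in P25 KO and 0.523% in P25 WT, against 1.85% in E14 KO and 2.06% in E14 WT. Annotated exons of Syn3 share 1733 of 12282 bases with Timp3 on the opposite strand, those of Unc13a 495 of 12623 bases with Colgalt1 and those of Syn2 90 of 7031 bases with Timp4. Whether reads were counted by strand is not given in the sources used here, and the part of the opposite genes in these values was not tested.

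Vesicular glutamate transporters separated the stages sharply. Slc17a7 (VGLUT1) stood at 441, 419, 411 and 464 CPM in P25 KO libraries and 449.8, 406, 490.3 and 452 CPM in P25 WT libraries. At E14 Slc17a7 had 17.4, 19.5, 20.2 and 27.1 CPM in KO libraries and 28.8, 42.1, 21.9 and 19.3 CPM in WT libraries. The lowest P25 library was more than 9 times the highest E14 library, and the log2 fold change was 4.36 in KO (SE 0.23, adjusted p = 4.66e-12) and 4.01 in WT (SE 0.23, adjusted p = 1.18e-11). Slc17a6 (VGLUT2) stood at 112, 119, 102 and 128 CPM in P25 KO libraries and 111, 121, 112 and 87.3 CPM in P25 WT libraries. At E14 Slc17a6 had 48.7, 75.0, 51.9 and 47.9 CPM in KO libraries and 46.1, 13.7, 74.3 and 67.0 CPM in WT libraries. All P25 libraries lay above all E14 libraries, by a smaller margin, and the log2 fold change was 1.04 in KO (SE 0.32, adjusted p = 0.00798) and 1.10 in WT (SE 0.32, adjusted p = 0.00566). Slc17a8 (VGLUT3), known in mice for low-threshold mechanoreceptors of the skin, stood at 4.69, 4.09, 3.65 and 5.16 CPM in P25 KO libraries and 5.03, 2.87, 4.45 and 2.55 CPM in P25 WT libraries. At E14 Slc17a8 had 0, 0.793, 0.291 and 0.238 CPM in KO libraries and 0.275, 0.305, 0.455 and 0.745 CPM in WT libraries. It rested on 0 to 17 estimated counts per E14 library and 66 to 130 per P25 library. Its log2 fold change was 3.64 in KO (SE 0.51, adjusted p = 4.19e-06) and 3.03 in WT (SE 0.49, adjusted p = 2.46e-05), and in KO it was 4.56 without E14 KO replicate 2. Per kb, Slc17a7 made up 83.8 ± 0.90% of the 3 transporters in P25 KO and 85.1 ± 2.2% in P25 WT, against 35.1 ± 7.3% in E14 KO and 46.5 ± 24.5% in E14 WT (SD, n = 4). The wide spread in E14 WT came from replicate 2, at 81.0%.

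**Figure D3:**
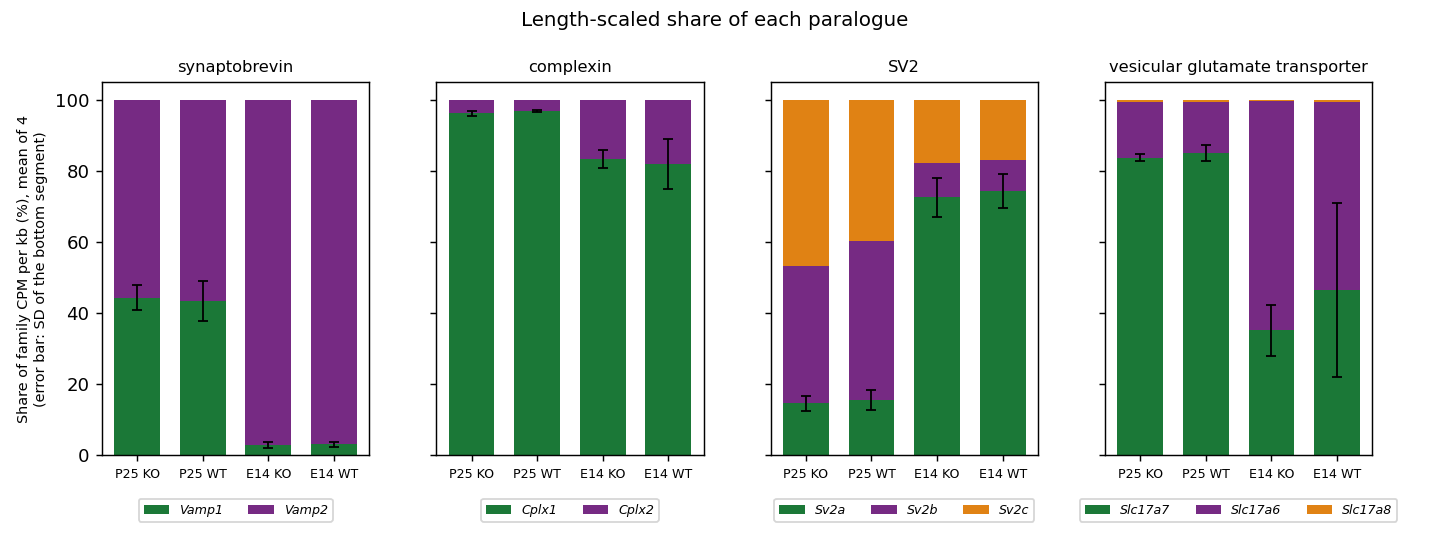
Share of each related gene in the length-scaled level (CPM per kb) of its family, as mean of 4 libraries per group; error bars are the SD of the bottom segment. Vamp1 takes 44.3% of synaptobrevin in P25 KO and 2.72% in E14 KO, Cplx1 takes 96.2% of complexin in P25 KO and 83.4% in E14 KO, Sv2a shrinks at P25 in both genotypes, and Slc17a7 grows.

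Of the 5 active zone genes only Pclo was called, and in KO alone. Bsn (bassoon), a giant scaffold of the active zone, stood at 329, 268, 206 and 225 CPM in P25 KO libraries and 367, 329, 426 and 137 CPM in P25 WT libraries. At E14 Bsn had 262, 301, 245 and 313 CPM in KO libraries and 239.9, 660.2, 361 and 258 CPM in WT libraries. P25 WT replicate 4 held the lowest value and E14 WT replicate 2 the highest, and the log2 fold change was -0.13 in KO (SE 0.31, adjusted p = 0.741) and -0.27 in WT (SE 0.31, adjusted p = 0.463). Without E14 WT replicate 2 the WT value of Bsn was 0.14. Pclo (piccolo), the scaffold related to bassoon, stood at 124, 91.0, 52.6 and 84.5 CPM in P25 KO libraries and 97.1, 90.2, 111 and 25.3 CPM in P25 WT libraries. At E14 Pclo had 18.5, 67.1, 29.1 and 17.0 CPM in KO libraries and 22.5, 11.5, 67.2 and 47.1 CPM in WT libraries. The stages overlapped in both genotypes, and the log2 fold change was 1.42 in KO (SE 0.50, adjusted p = 0.0206) and 1.12 in WT (SE 0.50, adjusted p = 0.0598). In KO the call of Pclo was lost without E14 KO replicate 1 (adjusted p = 0.0679), E14 KO replicate 4 (adjusted p = 0.0636) or P25 KO replicate 1 (adjusted p = 0.0633), and the log2 fold change was 2.05 without E14 KO replicate 2. In WT Pclo was called without E14 WT replicate 3 (1.62, adjusted p = 0.0143) or P25 WT replicate 4 (1.42, adjusted p = 0.017). It was also called in WT without E14 KO replicate 2 (1.16, adjusted p = 0.0352). Rims1 and Rims2, which dock vesicles and gather calcium channels, and Unc13a (Munc13-1), which primes vesicles, were called in neither genotype. Unc13a stood at 179 to 239 CPM in P25 KO and 140.3 to 275 CPM in P25 WT, against 161 to 216 CPM in E14 KO and 167 to 384 CPM in E14 WT. Rims1 stood at 35.1 to 53.5 CPM in P25 KO and 25.5 to 49.2 CPM in P25 WT, against 27.0 to 65.6 CPM in E14 KO and 18.9 to 59.2 CPM in E14 WT, and Rims2 at 22.6 to 33.1 CPM in P25 KO and 18.4 to 28.1 CPM in P25 WT, against 29.7 to 54.8 CPM in E14 KO and 16.8 to 54.4 CPM in E14 WT. The log2 fold change of Rims2 was -0.38 in KO (SE 0.28, adjusted p = 0.256) and -0.59 in WT (SE 0.29, adjusted p = 0.0808). Without E14 WT replicate 2, Rims2 was called lower in WT.

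To follow related genes within a library, free of scaling between libraries, the log2 ratio of their counts was taken for 16 pairs. The pairs were chosen with earlier results of these data known, so the tests below are not independent of that choice. An exact two-sided permutation test of the stage labels within each genotype (4900 splits, smallest p = 0.000408) was adjusted over the 16 pairs. In 14 pairs the adjusted p was under 0.05, and in 11 of these the ratio moved by at least 1 on the log2 scale. No pairs of unrelated genes were tested, and 59.8% of all tested genes in KO and 59.6% in WT were called between stages. The numbers of pairs given here are therefore not shown to be particular to related genes. The ratio of Vamp1 to Vamp2 shifted by 4.77 (adjusted p = 0.000653, exact permutation), with single-library values of -0.36 to 0.32 at P25 and -5.28 to -4.28 at E14. Sv2b gained 4.48 and Sv2c 3.65 on Sv2a, Syt3 gained 3.69 and Syt2 1.95 on Syt1, and Slc17a7 gained 3.02 and Slc17a8 2.49 on Slc17a6. Cplx1 gained 2.52 on Cplx2, Syngr1 gained 1.94 on Syngr3, and Pclo gained 1.61 on Bsn, while Syn3 dropped by 1.71 against Syn1, a shift of -1.71. The shift of Slc17a8 was 1.57 with a constant of 5 counts in place of 0.5. The 3 other pairs past the test moved less: Syn2 to Syn1 by -0.94, Napb to Napa by 0.88 and Rims1 to Rims2 by 0.56. Syt7 and Syt11 against Syt4 (0.59 and 0.32) did not pass, and both passed without E14 WT replicate 2 (0.89 for Syt7 and 0.51 for Syt11). All P25 libraries were apart from all E14 libraries in 9 of the 16 pairs. E14 WT replicate 2 lay above every P25 library in the ratio of Syt2 to Syt1, at 3.02, and was the E14 library nearest to the P25 range in that of Slc17a7 to Slc17a6, at 1.61.

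**Figure D4:**
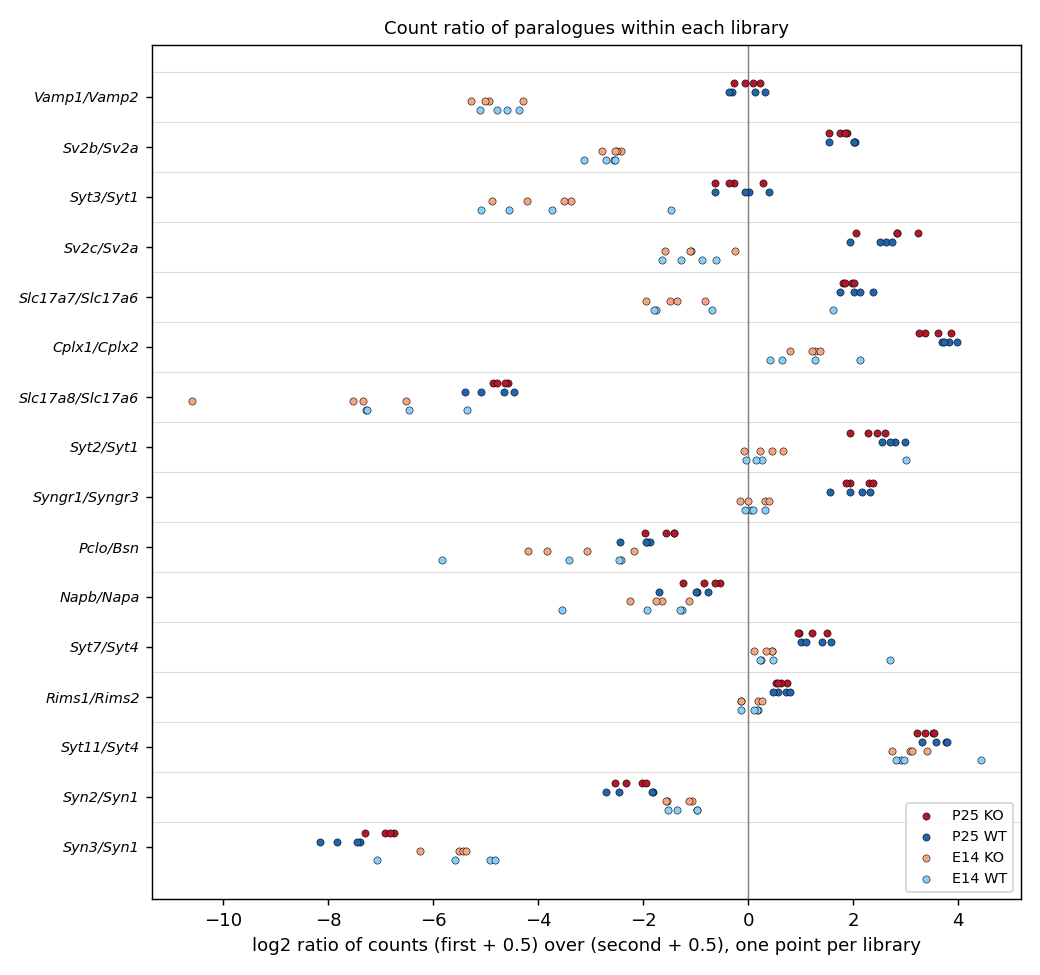
Log2 ratio of the counts of related genes within each library (each count plus 0.5), 1 point per library and 1 line per pair, colored by group. P25 and E14 points are apart for Vamp1/Vamp2, Sv2b/Sv2a, Sv2c/Sv2a and Cplx1/Cplx2, KO and WT points overlap within a stage in every line but Syn3/Syn1 at P25, and E14 WT replicate 2 lies at 3.02 in the Syt2/Syt1 line.

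The comparison of KO with WT ganglia, which the study's title names, called no release gene. In the edgeR test 0 of the 34 were called at P25, where 0.0463% of all tested genes were called, 0.0199% higher and 0.0265% lower. At E14 0 were called as well, where 0.0199% of all tested genes were called, each of them lower. DESeq2 likewise called 0 of the 34 at each stage, where it called 17 of 16737 genes at P25 and 6 of 18283 at E14. An unadjusted p under 0.05 was reached by 1 member at P25 and by 0 at E14 with either tool. Of all 15109 tested genes, 282 at P25 and 735 at E14 had an unadjusted p under 0.05 in edgeR. The log2 fold changes of KO over WT ran from -0.33 to 0.57 at P25 (median -0.03, beside -0.02 for all genes) and from -0.44 to 0.21 at E14 (median -0.12, beside -0.04 for all genes). The median SE was 0.23 at both stages, so differences of this size would not have been told from none.

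At P25 the member with the lowest p was Syn3, whose level was 11.7, 9.44, 6.80 and 8.29 CPM in P25 KO libraries, against 5.19, 6.19, 8.76 and 4.21 CPM in P25 WT libraries. The genotypes overlapped, and the log2 fold change was 0.57 (SE 0.27, unadjusted p = 0.0437, edgeR adjusted p = 1). The next were Sv2c, higher by 0.32 (SE 0.26, unadjusted p = 0.236), and Nsf, at -0.19 (SE 0.15, unadjusted p = 0.238). Their P25 libraries, given above, overlapped between genotypes. At E14 the lowest p belonged to Slc17a7, at 17.4, 19.5, 20.2 and 27.1 CPM in E14 KO libraries, against 28.8, 42.1, 21.9 and 19.3 CPM in E14 WT libraries. Its log2 fold change was -0.41 (SE 0.20, unadjusted p = 0.0587, edgeR adjusted p = 0.942), and 42.1 CPM in E14 WT replicate 2 was the highest value. Vamp1 followed at -0.29 (SE 0.18, unadjusted p = 0.125) and Bsn at -0.44 (SE 0.31, unadjusted p = 0.169), again with E14 WT replicate 2 as the highest library.

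The difference between the stage changes of KO and WT ganglia was tested as an interaction, and 0 of the 34 genes were called by edgeR or DESeq2, with 0 at an unadjusted p under 0.05, where 0% of all genes were called by edgeR (647 at an unadjusted p under 0.05, and 8 called by DESeq2). Syn3 had the lowest p (0.72, SE 0.38, unadjusted p = 0.0711), followed by Nsf (-0.28, SE 0.22, unadjusted p = 0.216) and Slc17a7 (0.36, SE 0.28, unadjusted p = 0.223). The call of Syn3 in WT alone and of Pclo in KO alone is therefore not shown to be a difference between genotypes. The ratios within libraries were also compared between genotypes, with 32 exact two-sided permutation tests (16 pairs at 2 stages, 70 splits each). No pair passed, and the lowest adjusted p was 0.914. Syn3 to Syn1 at P25 gave the smallest p these splits allow, 0.0286, with a shift of 0.76: the 4 P25 KO ratios ran from -7.30 to -6.74 and the 4 P25 WT ratios from -8.15 to -7.38.

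**Figure D5:**
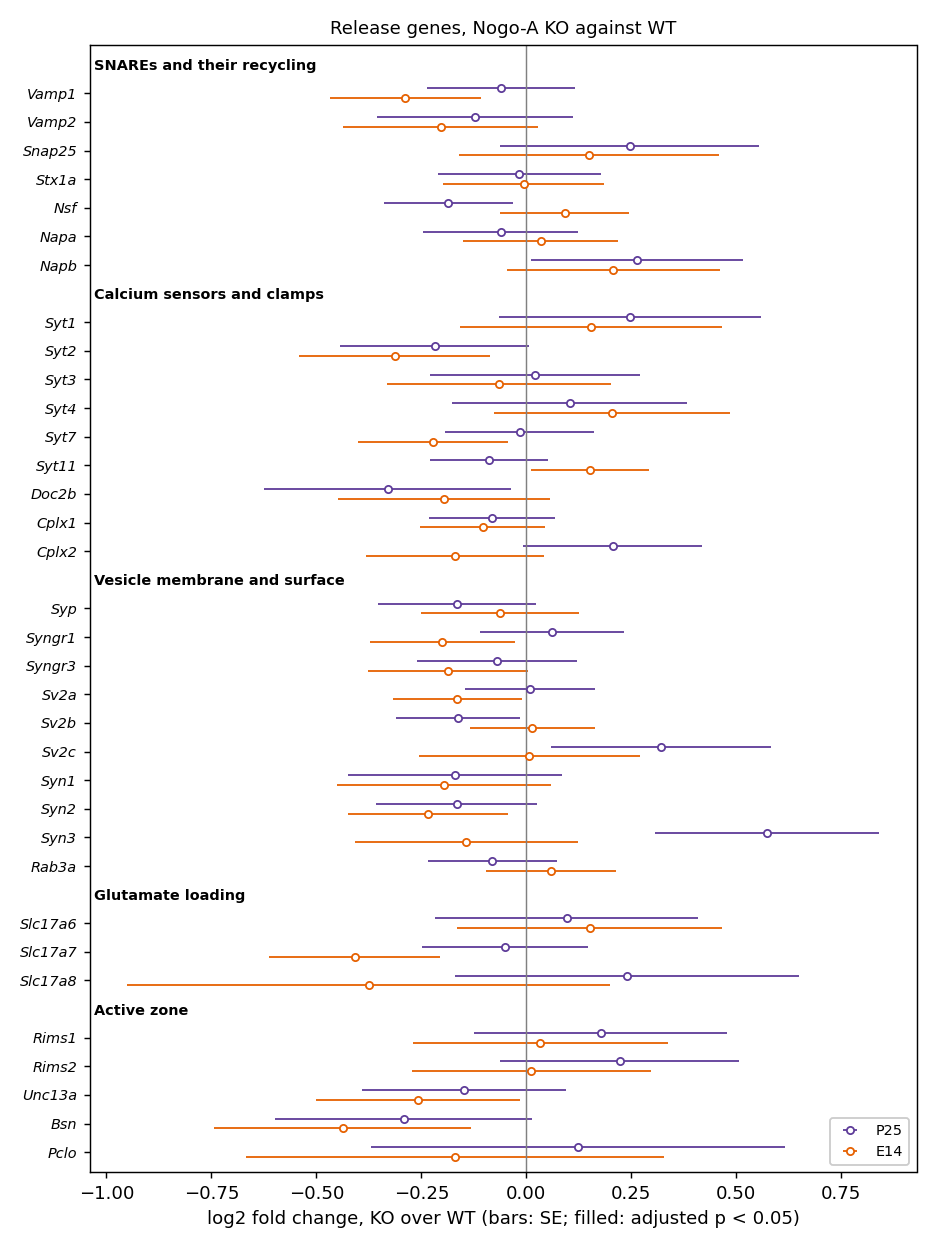
Log2 fold change of KO over WT (horizontal axis) for each release gene at P25 (purple) and E14 (orange). Bars are standard errors; all points are open, since no gene passed an adjusted p of 0.05, and Syn3 at P25 lies farthest from 0 at 0.57.

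A further 100 genes of the release and recycling pathway were found in the files and 93 of them were tested. At P25 41 were higher and 24 lower in KO, and 41 were higher and 25 lower in WT, with a median log2 fold change of 0.29 in KO and 0.38 in WT. These calls made up 69.9% of the list in KO and 71.0% in WT, beside 59.8% (30.6% higher and 29.2% lower) and 59.6% (29.7% higher and 29.8% lower) of all tested genes in KO and in WT. Split by role, the called genes of KO ganglia were 10 higher and 3 lower among 16 SNARE and SM proteins, 4 higher and 7 lower among 14 genes listed with the calcium sensors, 8 higher and 7 lower among 21 active zone genes, 11 higher and 3 lower among 19 vesicle membrane genes, and 8 higher and 4 lower among 23 endocytic genes. In WT ganglia they were 10 higher and 3 lower, 4 higher and 9 lower, 7 higher and 7 lower, 12 higher and 3 lower, and 8 higher and 3 lower in the same order of roles. The calcium sensor list took in further synaptotagmins whether or not they bind calcium, and the complexins Cplx3 and Cplx4. The endocytic genes were called in 52.2% in KO and 47.8% in WT, below the share of all tested genes in each genotype. The active zone genes were called in 71.4% in KO and 66.7% in WT, and no difference between roles was tested.

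The largest rises in both genotypes included 2 further synaptotagmins. Syt6 stood at 59.7 to 78.4 CPM in P25 KO and 60.2 to 79.8 CPM in P25 WT, against 0.143 to 1.17 CPM in E14 KO and 0.244 to 0.871 CPM in E14 WT, with a log2 fold change of 6.99 in KO (SE 0.37) and 6.70 in WT (SE 0.36). Syt12 rose by 4.29 in KO (SE 0.22) and 4.16 in WT (SE 0.22) on the log2 scale, and Stxbp6 (amisyn), a SNARE-binding protein, by 4.84 in KO (SE 0.48) and 3.84 in WT (SE 0.45). Pacsin1 (syndapin), an endocytic membrane-bending protein, was among the 4 largest rises in WT and Unc13c (Munc13-3), a priming factor, in KO, and both were called in both genotypes. Pacsin1 rose by 4.01 in KO (SE 0.22) and 3.64 in WT (SE 0.21) and Unc13c by 4.04 in KO (SE 0.47) and 3.44 in WT (SE 0.45) on the log2 scale.

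The largest fitted fall was that of Syt13 in KO and that of Slc18a3 in WT. Syt13, a synaptotagmin, stood at 3.15 to 3.58 CPM in P25 KO and 2.97 to 4.74 CPM in P25 WT, against 169 to 257 CPM in E14 KO and 165 to 282 CPM in E14 WT. Its log2 fold change was -5.94 in KO (SE 0.24) and -5.74 in WT (SE 0.23). Syt17 was lower by a log2 fold change of -3.10 in KO (SE 0.29) and -3.22 in WT (SE 0.29), and Doc2a, the relative of Doc2b, by -3.01 in KO (SE 0.28) and -3.51 in WT (SE 0.29). Slc18a3, the vesicular acetylcholine transporter, was at 0 in 3 of 4 P25 KO libraries and 3 of 4 P25 WT libraries, with at most 0.639 CPM in the fourth, against 1.71 to 3.14 CPM in E14 KO and 2.56 to 3.03 CPM in E14 WT. Its fitted log2 fold change was -4.00 in KO (SE 0.73) and -7.48 in WT (SE 1.02), which rests on 14 summed counts in P25 KO and 1 in P25 WT and is no bound. Between the genotypes 0 of these 93 genes were called at P25 and 0 at E14 by edgeR, with an unadjusted p under 0.05 in 1 at P25 (Slc18a3) and 2 at E14 (Sncg and Doc2g), and DESeq2 called 0 at each stage. Over all 15109 tested genes, edgeR gave 282 such p values at P25 and 735 at E14. It called 7 of them at P25 and 3 at E14, and DESeq2 called 17 of 16737 genes at P25 and 6 of 18283 at E14. The lowest p values were 0.0242 for Slc18a3 and 0.114 for Rab3c at P25, and 0.0142 for Sncg and 0.0403 for Doc2g at E14.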

How the data were processed

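Per the labels' protocols, stranded libraries were made from the messenger RNA of 16 trigeminal ganglia. Sample titles gave the groups and the replicate numbers. The authors deposited estimated counts per gene as whole numbers. Tools listed in the submitters' processing notes, with no role, are fastp 0.20.0, kallisto 0.46 and DESeq2 1.32.0, and the genome listed is GRCm39. Estimated counts divide reads between similar transcripts by a model and cover all transcripts of a gene, so genes with shared sequence are less certain than their counts show. Symbols were matched for 25614 of 25719 identifiers.

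All 16 libraries entered one edgeR 4.0.16 model (R 4.3.3) with TMM scaling and the filterByExpr filter. Contrasts of group means were tested by quasi-likelihood F tests and adjusted by Benjamini-Hochberg over 15109 genes, and genes with an adjusted p under 0.05 are called. SEs were derived from the F statistic. CPM use TMM-scaled totals, and CPM per kb use the length of the annotated principal transcript (GENCODE, GRCm38). Promoter windows came from RefSeq (GRCm38.p6). Ratios of paralogues used counts plus 0.5. The model and the permutation test were tested on simulated data.

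The 34 genes, the other gene lists, the pairs and the rule for named genes were chosen with earlier results of these data known. By that rule every library is given for both genes of pairs that shifted by at least 1, for the 4 largest called changes each way among members averaging 10 CPM or more, and for the 3 lowest p in the genotype and interaction contrasts. Other members are given by range. Of the other pathway genes it names the 4 largest called changes each way between stages among those averaging 1 CPM or more, and the 2 lowest p between genotypes. Among these other pathway genes 2, of which 1 passed the genotype test, are not reported here and are not in the list's counts, and Vamp7 was not analysed here.

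Alternatives were DESeq2 1.42.0, scaling by RLE or by library totals, other low-count filters, a model of the compared libraries only, a replicate block, summed same-numbered ganglia, other constants and leaving out each library. Replicates are single ganglia, and p-values rest on the spread among them. The labels name 4 animals per group, yet 2 pairs of E14 libraries differ in name only by R or L, so some ganglia may share an animal. Figures were drawn with matplotlib 3.10.9.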

Additional observations from a re-analysis of the deposited data

Results flagged for a closer look

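In 15 of 136 sets of 4 libraries (34 genes in 4 groups), 1 library stood far from the other 3 by Dixon's criterion. Chance gives this in about 1 in 20 sets of independent, normally distributed values. The 34 genes were read in the same libraries, so these sets are not independent, and other genes were not checked in this way. E14 WT replicate 2 was the library in 5 of these: it was the highest of its group for Sv2a (338 CPM), Syn1 (965 CPM), Unc13a (384 CPM) and Syngr3 (121 CPM), and the lowest for Syt4 (21.1 CPM). E14 KO replicate 2 was the highest of its group for Syt1 (176 CPM), Syt4 (101 CPM), Sv2c (198 CPM) and Slc17a6 (75.0 CPM). P25 WT replicate 4 was the lowest for Sv2b (241 CPM) and Rims2 (18.4 CPM) and the highest for Napa (536 CPM). P25 WT replicate 2 was the highest for Syt1 (116 CPM) and the lowest for Rab3a (677 CPM). P25 KO replicate 3 was the lowest for Syn2 (214 CPM).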

How the results depend on the processing

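The alternatives were run on 76 results, giving 1731 values, of which 1688 kept their direction and their side of the threshold or, for counts, stayed within 1.5 times the count reported. The number of release genes called between stages was 23 to 25 in KO and 23 to 27 in WT when each library was left out, and 24 to 26 in KO and 24 to 27 in WT under the others. Calls over all genes moved too: 8343 to 10284 in KO and 8408 to 9688 in WT, of 15232 to 15321 tested, when each library was left out. Under the others they numbered 8622 to 9915 in KO and 7687 to 9775 in WT, of 14210 to 20220 tested. No release gene was called in either genotype comparison or in the interaction under any alternative run. Over all genes these gave 3 to 17 calls at P25, 1 to 6 at E14 and 0 to 8 in the interaction. The replicate block gave 24 and 24 stage calls, the same genes, and 11 shifted pairs. Replicate numbers did not pair the libraries (correlations of same-numbered deviations from -0.36 to 0.20), so that fit stands here only. Pairs shifted between stages numbered 11 to 12 when each library was left out. Among the 76 results, signs turned only for genes that were not called: Cplx2 in WT was 0.0076 with DESeq2, 0.0070 with RLE scaling, 0.030 with no filter, 0.0071 with the stricter filter and -0.20 to 0.22 when each library was left out. Syt1 in KO was -0.028 with library totals alone, -0.0034 with the replicate block, -0.074 with summed ganglia and -0.12 to 0.29 when each library was left out, Syt1 in WT -0.37 to 0.18, Bsn in WT -0.45 to 0.14 and Syn3 in KO -0.25 to 0.014. Outside the 76 results, stage values in WT also crossed 0 over the alternatives for Rims1 (-0.22 to 0.31), Unc13a (-0.13 to 0.33) and Syt4 (-0.022 to 0.45), none of them called. Genotype values of other members crossed 0 as well, such as Snap25 at E14 (-0.12 to 0.36). Pclo in WT passed with RLE scaling (1.17, adjusted p = 0.0496) and with no filter (1.18, adjusted p = 0.0372). Vamp2 passed with summed ganglia (0.41 in KO, adjusted p = 0.0374, and 0.47 in WT, adjusted p = 0.019) and, in KO, with the compared libraries only (0.40, adjusted p = 0.0134). In WT, Syn2 (higher) and Rims2 (lower) also passed with summed ganglia, and in KO Syn2 passed with the compared libraries only. The summed WT pair joins E14 WT replicate 2 with E14 WT replicate 4. Leaving out replicate 2 added the same genes in WT, Vamp2, Syn2 and Rims2. The cause of these changes was not tested. Depth limits Slc17a8, with 0 to 17 estimated counts per E14 library.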
